A study of Drosophila melanogaster with 12 samples.

Results

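The mitochondrial ribosomal protein genes were followed across 6 groups of Drosophila melanogaster ovaries profiled by RNA-seq. Members were all rows of the count table whose symbol starts with mRpL or mRpS followed by a number, which gave 72 of 15446 rows, 46 named for the large subunit and 26 for the small. All 72 passed the filter on low counts, as did 8638 rows in all, and the counts of a member in a library ran from 9 to 1765. Per the labels, 2 groups were wild-type stocks, attp2 and W1118. Another group was a germline-specific knockdown of nxf2, and a further group a CRISPR/Cas9 mutant labelled nxf2 -/-. The remaining groups were nxf2 +/- and nxf2 -/- ovaries whose labels both add panx FL10B and call it tethered, so that both carry it and the control of that pair is a heterozygote. Each group had 2 libraries, and the labels give the flies an age of 3 to 5 with no unit. The sources used here do not give the driver of the knockdown, the number of animals behind a library, or whether the mutant is a single line. Libraries of the Panx mutant were not analysed here.

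Mitochondrial ribosomes translate the few proteins encoded by mitochondrial DNA, which are core subunits of the respiratory chain and ATP synthase. Their protein components are encoded in the nucleus, made in the cytoplasm and imported, and they assemble with ribosomal RNAs transcribed inside the mitochondrion. Some have counterparts in bacterial ribosomes, while others occur only in mitochondrial ribosomes. The ovary is a tissue with many mitochondria, since the nurse cells supply the oocyte with the mitochondria that the embryo inherits. nxf2 encodes a relative of the nuclear RNA export factors that acts with Panx and Piwi in transposon silencing.

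Total counts were 3811630 to 11260925 per library. Levels are given as CPM, counts scaled to a common library size. nxf2 read 36.1 and 49.2 CPM in attp2 and 19.0 and 17.2 in the knockdown. Its level was 69.5 and 68.8 CPM in W1118 and fell to 29.9 and 33.6 in the mutant. With Panx FL10B the heterozygote read 34.6 and 35.8 CPM and the mutant 30.2 and 30.1. All 12 germline marker genes had counts in every library, with summed levels of 6396 to 11394 CPM. All 12 follicle cell markers and all 9 chorion genes did too. The 37 mitochondrially encoded rows of the table had a count of 0 in every library, so the partners of these proteins could not be compared. The replicates of attp2 were the furthest apart, since over the members their chi-square divided by its degrees of freedom was 10.9, against 0.93 to 3.53 in the other groups. The W1118 pair therefore differed by no more than counting noise over the members, but it differed over all genes, where that value was 1.46, and it was kept as 2 libraries.

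By level per exon length, the 72 genes spanned a wide range, with a mean over the 12 libraries of 4.84 to 133 CPM per kb and a median of 35.8. mRpL12, whose bacterial counterpart forms the stalk that receives translation factors, led with 133 CPM per kb and was followed by mRpL9 (102), mRpL30 (95.3), mRpS7 (91.6) and mRpL33 (81.1), the last 4 named after their values were seen. The lowest were mRpS14 at 4.84 CPM per kb, mRpL36 at 7.21 and mRpL20 at 9.25. Without division by length, mRpS30 had the highest mean, 104.6 CPM, before mRpL12 with 98.0 and mRpS5 with 84.6, and its exons were also the longest, at 2078 bases. Exon lengths and neighbours were taken from Ensembl release 115, which is a later genome build than that of the counts. In that annotation 42 members overlap the exons of another gene. mRpL53 is covered in full, and mRpS14, with 35.8% of its exons covered, is the only one of the named low genes with an overlap. The sources used here do not say whether counting used the strand, so reads of such pairs may be shared.

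**Figure D1:**
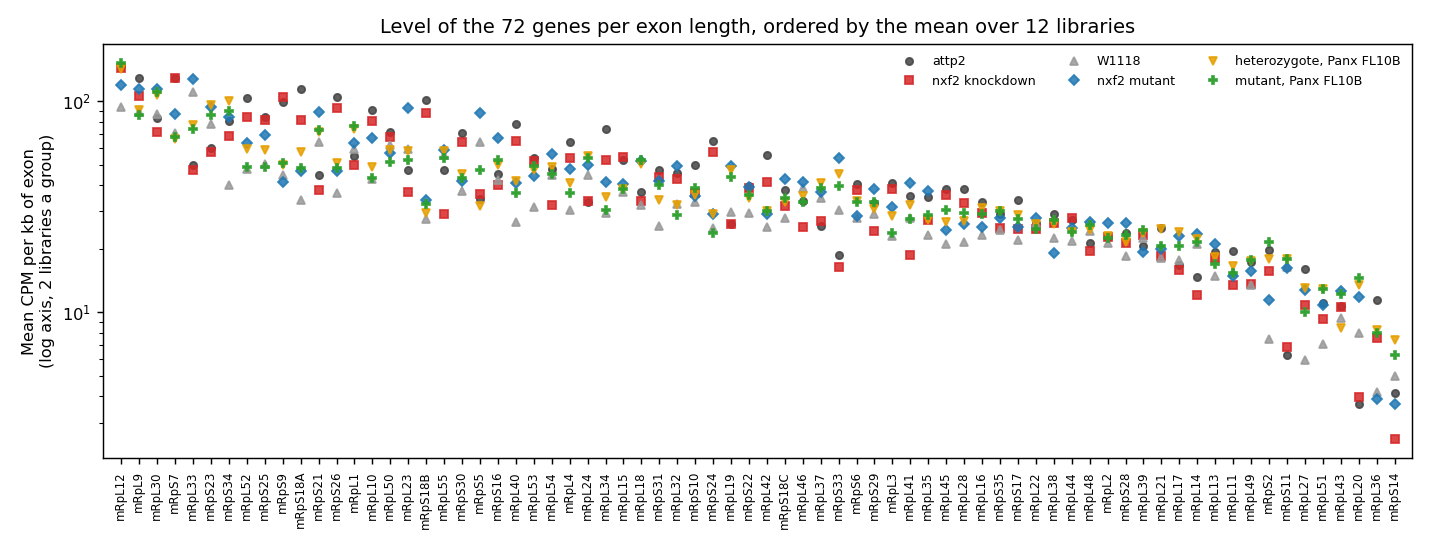
Mean CPM per kb of exon (log axis) of each of the 72 genes in the 6 groups of 2 libraries, ordered by the mean over 12 libraries. mRpL12 leads with 133 CPM per kb and mRpS14 is last with 4.84, and the groups of most genes lie close together beside that range.

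Levels of the family as a whole differed between the groups by less than 1.5 times. The 72 genes summed to 2730 and 3093 CPM in the attp2 libraries and to 2520 and 2677 in the knockdown. They summed to 2120 and 2078 CPM in W1118, the lowest group, and to 2571 and 2732 in the mutant. With Panx FL10B the sums were 2430 and 2496 CPM in the heterozygote and 2444 and 2414 in the mutant, which overlap. The mean was 0.893 times attp2 in the knockdown, with all libraries of one group below the other, and 1.26 times W1118 in the mutant. It was 0.986 times the heterozygote in the mutant with Panx FL10B. In these bulk samples, fewer cells of a type and less RNA per cell cannot be told apart.

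**Figure D2:**
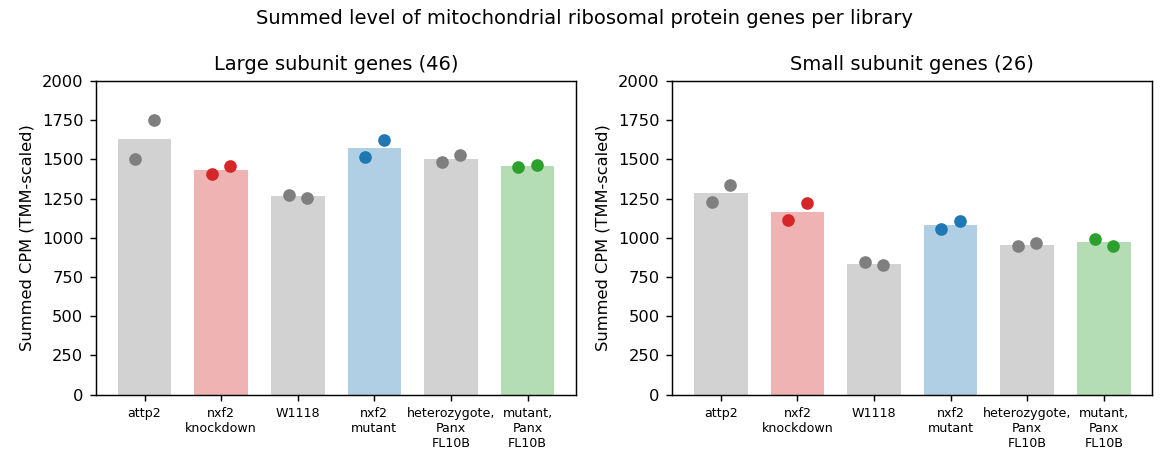
Summed CPM of the large subunit genes (left) and small subunit genes (right) in each library (points) with the mean of 2 (bars). W1118 is lowest in both panels, at 1265 and 834 CPM on average, and the mutant lies above it at 1572 and 1080.

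Single members moved further than the sum. The highest group mean was 1.13 times the lowest for mRpL22, the steadiest member, and 3.97 times for mRpL20, the most variable, with a median of 1.73, and it was 2 times or more in 25 of the 72 genes. W1118 was the lowest group for 36 members and the highest for 0. attp2 was the highest for 30 and the mutant for 23. The first principal component of the members held 60.7% of their variance and separated attp2 and the knockdown, at -4.01 to -3.13, from the other 8 libraries, at 1.07 to 2.33. The mutant and both groups with Panx FL10B thus lay on the side of W1118, and the knockdown on the side of attp2. These measures were not taken over all tested genes, so they cannot be called particular to the family.

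A property shared by these genes has to be read beside every comparison below. They are short, with exons of 327 to 2078 bases and a median of 783, and all but mRpS30 are under 2000 bases. In these libraries fold changes varied with exon length over all genes. Among the 1349 other tested genes under 1000 bases, the median log2 fold change was -0.23 in the knockdown against attp2, 0.35 in the mutant against W1118, -0.06 in the mutant against the heterozygote with Panx FL10B and -0.36 in W1118 against attp2. The 50 members under 1000 bases had medians of -0.22, 0.38, -0.06 and -0.42, close to those values in each case. Other genes of 4000 bases or more had medians of the opposite sign, 0.20, -0.20, 0.15 and 0.24. The shares called were not always as close as the medians. In the mutant 38% of members under 1000 bases rose, against 29.0% of other genes. At 1000 to 2000 bases 28.6% and 16.5% rose there, with medians of 0.22 and 0.14. With Panx FL10B 0% of members under 1000 bases fell, against 7.71% of other genes. In the knockdown 4.76% of members of 1000 to 2000 bases fell, against 10.6%. These differences were not tested. The difference in log2 level between short and long genes, relative to the mean of all libraries, also varied between replicates, most in attp2 and the knockdown. It was 0.02 and 0.38 in attp2 and -0.38 and -0.11 in the knockdown. Replicates were closer in W1118, at -0.35 and -0.37, and in the mutant, at 0.10 and 0.24. With Panx FL10B it was 0.15 and 0.21 in the heterozygote and 0.0008 and -0.04 in the mutant. Between W1118 and the mutant it thus differed by more than between their replicates. Each comparison was therefore also fitted with the length trend of each library removed, a step added after the data were seen. Its results are given after those of the fit without it. That step removes any shift shared by genes of similar length, whatever its source. The source of the trend was not tested.

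**Figure D3:**
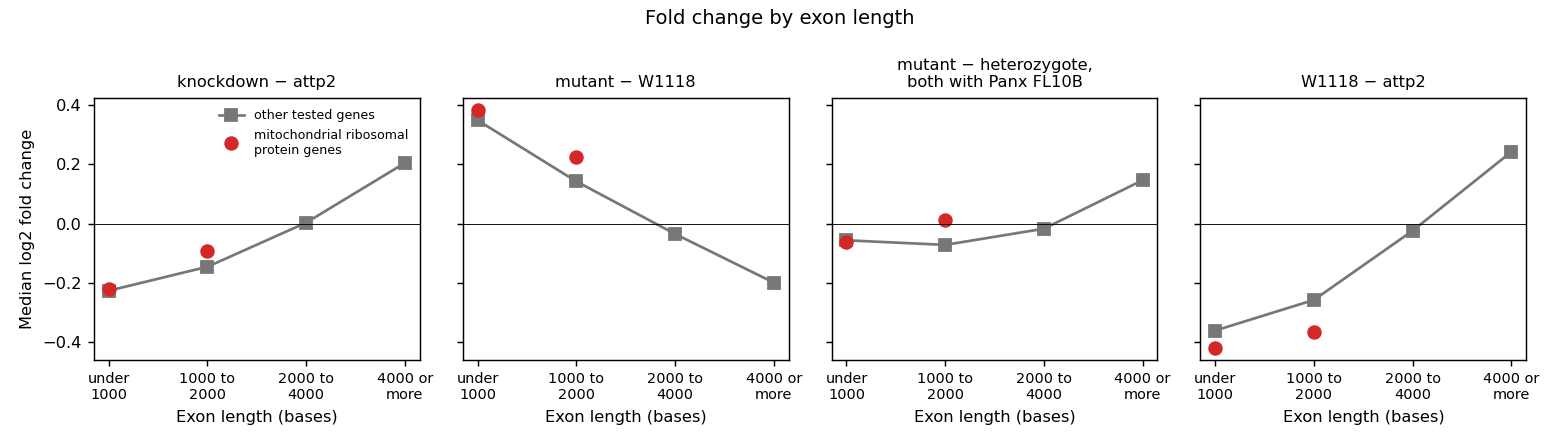
Median log2 fold change of the members (red) and of all other tested genes (grey line) by exon length in 4 comparisons, for classes with at least 20 genes, so that mRpS30 has no point. Members under 1000 bases lie at -0.22, 0.38, -0.06 and -0.42 from left to right, beside -0.23, 0.35, -0.06 and -0.36 for other genes of that length.

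The knockdown was compared with attp2 to ask what loss of nxf2 in the germline does. In the knockdown, 8 of the 72 genes fell and 0 rose, 5 of the large and 3 of the small subunit, at an adjusted p (edgeR quasi-likelihood test, Benjamini-Hochberg over all 8638 genes) under 0.05. Over all tested genes 15.7% were called, 7.7% as lower, beside the 11.1% of members that fell. The members' median log2 fold change was -0.17 against -0.03 for all tested genes. mRpL41, found in mitochondrial ribosomes and not in bacterial ones, fell most. It read 18.5 and 23.5 CPM in attp2 and 11.5 and 10.6 in the knockdown, a log2 fold change of -0.93 ± 0.18 (SE, n = 2 per group) with an edgeR adjusted p of 0.00471. The knockdown libraries lay below both controls, which holds for every member named by rule for a rise or fall, since that rule required groups without overlap. Of all tested genes, 27.0% lay lower without overlap in the knockdown and 22.7% higher.

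mRpL55 and mRpL54, also specific to mitochondrial ribosomes, fell by 0.69 ± 0.14 and 0.57 ± 0.13 on the log2 scale (edgeR adjusted p = 0.00602 and 0.0116). mRpL55 read 22.9 and 20.1 CPM in attp2 and 12.8 and 13.8 in the knockdown, and mRpL54 read 29.7 and 35.5 CPM and then 21.4 and 22.4. mRpL27, whose bacterial counterpart reaches into the peptidyl transferase centre, read 15.3 and 14.5 CPM in attp2 and 10.2 and 9.91 in the knockdown, and mRpL11, at the base of the stalk in bacteria, read 14.5 and 14 and then 8.98 and 10.7. They fell by 0.56 ± 0.16 and 0.53 ± 0.16 (edgeR adjusted p = 0.0333 and 0.042). The others that fell were mRpS18A, mRpS10 and mRpS29, by 0.48, 0.45 and 0.44 on the log2 scale, of which the last 2 were named after their values were seen.

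With the length trend removed, mRpL41 was the only one of these 8 that still fell, with a log2 fold change of -0.67 ± 0.16 and an edgeR adjusted p of 0.0192. The members' median then became 0.04, and 10.6% of all genes with a known length were called. No call was made among the members when the fit held only the attp2 and knockdown libraries, where mRpL41 had an edgeR adjusted p of 0.0663 and 2.29% of all genes were called. Leaving out a library changed the count to 21 without attp2 replicate 1, 5 without attp2 replicate 2, 2 without knockdown replicate 1 and 7 without knockdown replicate 2, where the lone library is assumed to vary like the other groups and 6.14% to 27.8% of all genes were called. The pairing of the knockdown with attp2 was read from the names alone. Set against W1118 instead, 26 members were higher and 15 lower, with a median of 0.21, and 51.9% of all genes were called. Follicle cell markers summed to 21920 to 24864 CPM in the knockdown and to 12819 to 14262 in attp2, with 7 of 12 rising, and 4 of 9 chorion genes rose. Germline markers summed to 9071 to 10247 CPM in the knockdown and to 9804 to 11394 in attp2, with 1 of 12 rising and 1 falling. Besides these, 1 of 5 tested hemocyte markers rose and 1 of 9 fat body markers fell. The part of these shifts in the members' values was not tested.

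The mutant was compared with W1118. Here 25 of the 72 genes rose and 0 fell, 14 of the large and 11 of the small subunit, against 26.8% of all tested genes called and 15% called as higher. The members' median log2 fold change was 0.34 and that of all tested genes 0.04, and the rises ran from 1.26-fold to 2.19-fold. mRpL27 rose most and mRpS34, a small subunit protein specific to mitochondrial ribosomes, came second. mRpL27 read 6.18 and 4.90 CPM in W1118 and 11.6 and 12.2 in the mutant, a log2 fold change of 1.13 ± 0.20 (SE, n = 2 per group; edgeR adjusted p = 0.00123). mRpS34 read 29.6 and 27.4 CPM in W1118 and 62.0 and 56.6 in the mutant, 1.06 ± 0.15 (edgeR adjusted p = 0.000266). The attp2 libraries read 15.3 and 14.5 CPM for mRpL27, above the mutant, and 49.3 and 64.6 for mRpS34, on either side of it.

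mRpS33, another protein specific to mitochondrial ribosomes, read 13.4 and 16.5 CPM in W1118 and 28.3 and 24.3 in the mutant. mRpL19, which in bacteria lies at the interface of the subunits, read 31.4 and 30.3 and then 53.9 and 48.6. mRpS31 read 32.2 and 33.4 and then 47.8 and 59.3. They rose by log2 0.80 ± 0.22, 0.73 ± 0.15 and 0.70 ± 0.20, with edgeR adjusted p of 0.0159, 0.00332 and 0.0188. Of all tested genes, 37.3% lay higher without overlap in the mutant and 32.0% lower. The called members lay on all 5 large chromosome arms, with 4 of 12 on 2L, 5 of 12 on 2R, 4 of 17 on 3L, 9 of 20 on 3R and 3 of 11 on X. The share of all tested genes called on each arm was not computed, so these counts do not set any arm apart. mRpS18A rose as well, by log2 0.46 ± 0.15 (edgeR adjusted p = 0.0417). It and mRpL27 were the only members called in 3 of the 4 comparisons of groups.

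With the length trend removed, mRpL27 (log2 0.88 ± 0.20, edgeR adjusted p = 0.00753), mRpS34 (0.75 ± 0.13, 0.00137), mRpL19 (0.51 ± 0.15, 0.0234) and mRpS31 (0.53 ± 0.17, 0.0406) still rose. mRpL10 and mRpL4 did too, while mRpS33 had a log2 fold change of 0.40 and an edgeR adjusted p of 0.161. In that fit mRpL38, mRpL39 and mRpL50 fell, the median of the members was 0.06 and 22% of all genes were called. These genes beyond the named rule were named after their values were seen. The count also depended on single libraries, at 5 without W1118 replicate 1, 2 without W1118 replicate 2, 15 without mutant replicate 1 and 9 without mutant replicate 2. In these fits 9.21% to 19.2% of all genes were called. The count was 13 with DESeq2, which called 22.3% of all genes. In the main fit 6 of the 30 members that overlap no other gene were called, with a median of 0.21. Of the 42 members with an exon overlap, whose reads may be shared with a neighbour, 19 were called, with a median of 0.42. The matching shares of all tested genes with and without overlap were not computed. Set against attp2 in place of W1118, 16 members were higher and 26 lower, with a median of -0.11 and 56.1% of all genes called. The direction of the family in the mutant thus depended on which wild-type stock served as control. Cell type markers moved in the same comparison. Germline markers summed to 8102 to 8170 CPM in W1118 and to 6828 to 6875 in the mutant, with 2 of 12 falling and 1 rising. Follicle cell markers summed to 12434 to 13373 CPM in W1118 and to 9335 to 10069 in the mutant, with 5 of 12 falling and 1 rising, and chorion genes to 6880 to 7181 and 9305 to 13146 CPM, with 3 of 9 rising. Hemocyte markers summed to 355 to 360 CPM in W1118 and to 566 to 665 in the mutant, with 3 of 5 tested rising. Fat body markers, of which 5 to 6 of 9 had a count of 0 in W1118, summed to 74.4 to 76.6 CPM there and to 257 and 113 in the mutant libraries, with 3 of 9 rising. The part of these shifts in the members' values was not tested.

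With Panx FL10B, the nxf2 mutant was compared with its heterozygote, the only comparison whose control shares the labelled background. A single member was called, mRpS5, whose bacterial counterpart lies near the entry of the mRNA channel, against 19.5% of all tested genes, 9.27% as higher. It read 53.7 and 53.3 CPM in the heterozygote and 82.6 and 76.8 in the mutant, a log2 fold change of 0.57 ± 0.19 (SE, n = 2 per group; edgeR adjusted p = 0.0476). Its mutant libraries lay above both of the heterozygote, as did those of 34.2% of all tested genes, and with the length trend removed the value was 0.65 ± 0.17 (edgeR adjusted p = 0.0146). That call was lost without scaling factors, without the filter, and when any of the 4 libraries was left out, with an adjusted p of up to 0.214 over all alternatives. mRpS5 was not called in the mutant against W1118, where it read 105.0 and 111.3 CPM and then 150.8 and 144.5, a log2 fold change of 0.45 ± 0.18 (edgeR adjusted p = 0.0807).

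The other 71 members did not pass the test, and 4 of the 72 had an unadjusted p under 0.05. The median log2 fold change of the 72 members was -0.04, that of all tested genes was -0.01, and the standard error of a member was 0.16 at the median. mRpL27, called in both other comparisons of nxf2, read 11.9 and 12.4 CPM in the heterozygote and 9.54 and 9.22 in the mutant, a log2 value of -0.37 ± 0.18 with an edgeR adjusted p of 0.16. In the same comparison all 9 chorion genes fell, from a summed level of 17130 to 17494 CPM to one of 330.2 to 494.4 CPM, and 8 of 12 follicle cell markers fell. Of the fat body markers 4 of 9 rose and 1 fell, while their sum went from 80.1 to 84.6 CPM down to 54.7 to 56.5 CPM. Of the muscle markers 4 of 14 rose, and of 5 tested hemocyte markers 1 rose and 1 fell. Germline markers summed to 6396 to 6756 CPM in the heterozygote and to 7712 to 7762 in the mutant, with 3 of 12 rising and 1 falling. The part of these shifts in the members' values was not tested. With the length trend removed mRpL43, a protein specific to mitochondrial ribosomes, was called as well, with 7 and 6.18 CPM in the heterozygote and 10.9 and 8.21 in the mutant (log2 0.64 ± 0.22, edgeR adjusted p = 0.0468). It was named after its values were seen, and 21.5% of all genes were called in that fit.

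The largest differences among the members were those between the wild-type stocks. In W1118 against attp2, 34 members were lower and 10 higher, while 55.5% of all tested genes were called, 30.3% as lower and 25.2% as higher. The median log2 value was -0.40 against -0.07 for all tested genes. Classed by symbol only, the small subunit genes summed to 0.650 times attp2 and the large subunit genes to 0.777 times. The difference between these classes was not tested. Of the small subunit genes 15 of 26 were lower and 5 higher, and of the large subunit genes 19 of 46 and 5.

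Among the lower genes were both mRpS18B and mRpS18A, paralogs of the bacterial S18 protein. mRpS18B read 90.7 and 84.2 CPM in attp2 and 21.9 and 25.6 in W1118, a log2 difference of -1.87 ± 0.13 (SE, n = 2 per group; edgeR adjusted p = 8.55e-08). mRpS18A read 63.7 and 68.9 CPM and then 20.8 and 18.8, -1.75 ± 0.15 (edgeR adjusted p = 5.77e-07). For mRpS18B the knockdown libraries, at 73.4 and 78.5 CPM, resembled attp2, and the mutant and both groups with Panx FL10B, at 23.4 to 29.9 CPM, resembled W1118. In the human mitochondrial ribosome the counterpart of mRpS18A sits in the large subunit, so the subunit classes used here follow the symbols only.

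mRpL40 and mRpS26, both specific to mitochondrial ribosomes, were lower by log2 values of -1.53 ± 0.20 and -1.52 ± 0.16 (edgeR adjusted p = 2.36e-05 and 4.18e-06). mRpL40 read 63.1 and 49.1 CPM in attp2 and 18 and 20.4 in W1118, and mRpS26 read 72.9 and 99.4 and then 33.4 and 27.4. mRpL36, a very small protein with a bacterial counterpart, was lower by -1.47 ± 0.42 (edgeR adjusted p = 0.00913), but its level was only 6.12 and 5.22 CPM in attp2 and 2.32 and 1.84 in W1118. mRpL27 was lower too, by -1.45 ± 0.19 (edgeR adjusted p = 2.57e-05).

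In the other direction, mRpS11, a protein of the platform of the small subunit in bacteria, read 3.80 and 5.31 CPM in attp2 and 11.8 and 12.1 in W1118 (log2 1.39 ± 0.23, edgeR adjusted p = 0.00018). mRpL33, a small protein of the large subunit, read 15.5 and 19.4 and then 43.2 and 34.3 (1.14 ± 0.17, 8.79e-05). mRpS5 read 43.0 and 72.5 CPM and then 105.0 and 111.3 (0.91 ± 0.18, 0.000946). mRpL20, whose bacterial counterpart is needed early in assembly of the large subunit, had log2 1.08 ± 0.36 at 1.58 and 2.84 CPM against 5.66 and 3.98 (edgeR adjusted p = 0.0205). mRpS33 read 7.14 and 11.2 CPM and then 13.4 and 16.5 (0.72 ± 0.23, 0.0158). Of all tested genes, 35.5% lay higher and 41.2% lower in W1118 without overlap of the stocks.

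Removal of the length trend left the count of calls between the stocks nearly the same, at 43, but moved its balance to 19 higher and 24 lower, with a median of -0.11 and 54.8% of all genes called. mRpS18B and mRpS18A were then lower by -1.56 ± 0.13 and -1.42 ± 0.13, and mRpS11 and mRpL33 higher by 1.72 ± 0.22 and 1.49 ± 0.15. mRpL40, mRpS26 and mRpL36 had values of -1.22, -1.19 and -1.14, and mRpL20 and mRpS33 of 1.42 and 1.08, all still called. In both fits 34 members were called. Chorion genes summed to 21855 to 22212 CPM in attp2 and to 6880 to 7181 in W1118, and germline markers to 9804 to 11394 and 8102 to 8170. Of the 12 germline markers, however, 5 were higher in W1118 and 5 lower, with a median log2 value of 0.05. Hemocyte markers summed to 489 to 649 CPM in attp2 and to 355 to 360 in W1118, with 4 of 5 tested lower. The part of these differences in the members' values was not tested.

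**Figure D4:**
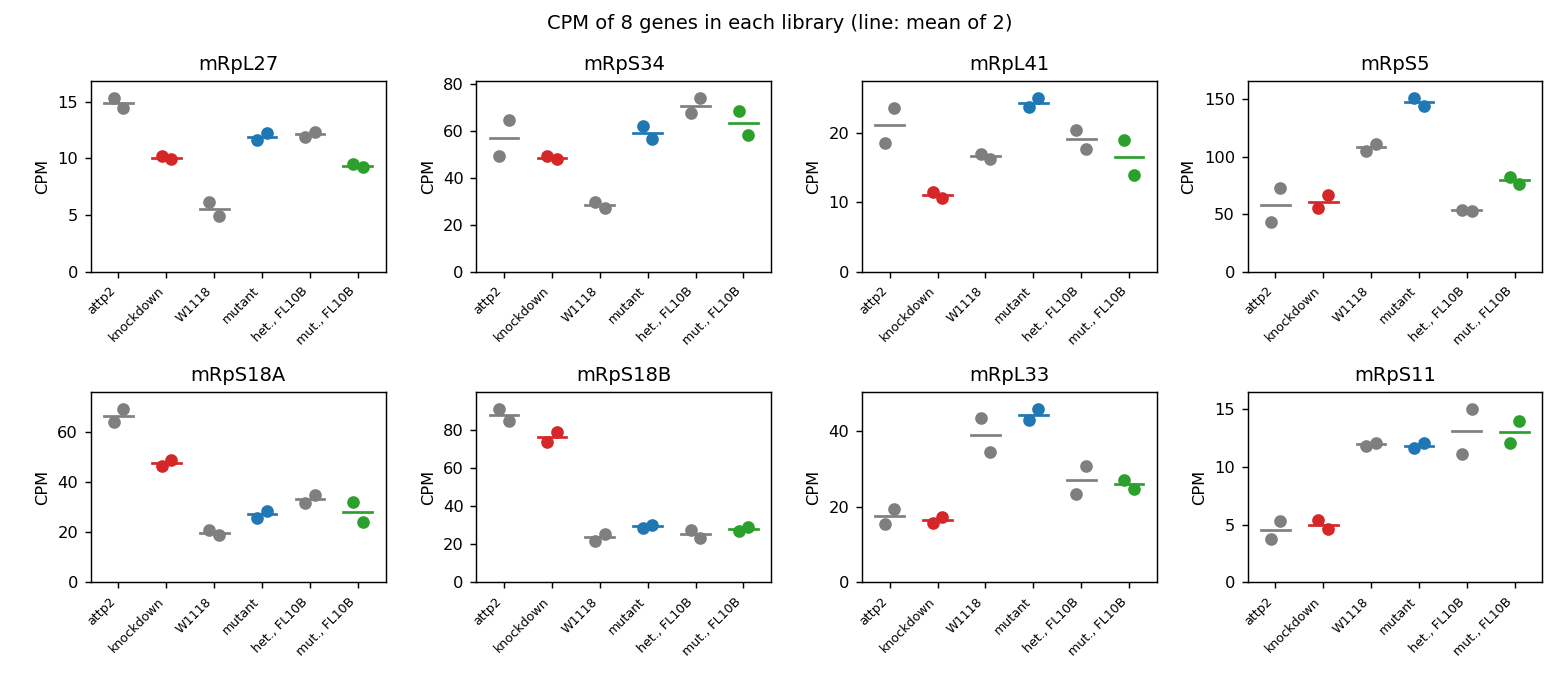
CPM of 8 members in each library (points) with the mean of 2 (lines). mRpS18A and mRpS18B are high in attp2 and the knockdown, mRpL33 and mRpS11 are low there, mRpL27 is lowest in W1118, and mRpS5 is higher in the mutant with Panx FL10B than in the heterozygote.

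Since attp2 and W1118 enter several comparisons, the members' values are best set side by side. Of the 25 members that rose in the mutant against W1118, 15 were among the 34 that were lower in W1118 than in attp2, 2 were among the 10 that were higher, and 8 did not differ between the stocks by the test. These counts share the W1118 libraries and are a description. Of the 8 that fell in the knockdown, 4 rose in the mutant, namely mRpL27, mRpL41, mRpS18A and mRpS29. With the length trend removed, only mRpL41 of these kept its fall and only mRpL27 its rise, so none was called in both. The matching shares of all tested genes were not computed for these cross counts. In all, 17 members were called in no comparison of groups, 34 in 1, 19 in 2 and 2 in 3. As shares these are 23.6%, 47.2%, 26.4% and 2.78% of the members, beside 26.8%, 39.8%, 24.1% and 7.90% of all tested genes, of which a further 1.48% were called in all 4.

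**Figure D5:**
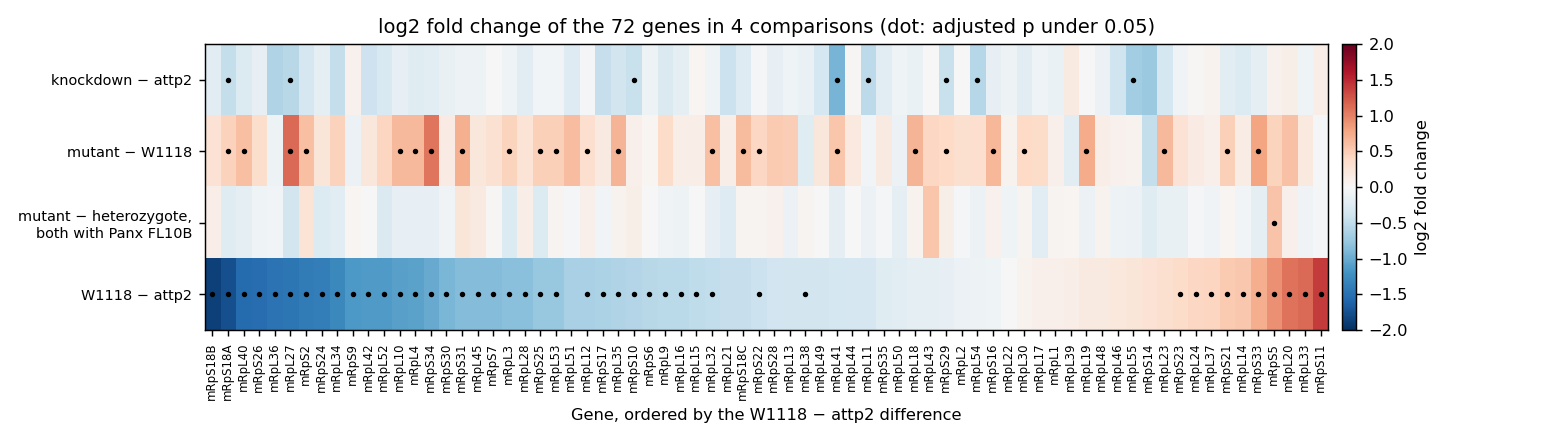
log2 fold change (colour, red higher and blue lower in the first-named group) of the 72 genes in 4 comparisons, ordered by the difference between the stocks. Dots mark an edgeR adjusted p under 0.05, with 8, 25, 1 and 44 dots from the top row to the bottom.

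The effects of the knockdown and the mutant differed for 30 members, all with a higher value in the mutant, by a test of the difference of the effects, while 27% of all tested genes were called and 14.5% in that direction. The median difference was 0.52 log2 against 0.10 for all tested genes. The largest were those of mRpL27 (1.69 ± 0.25, edgeR adjusted p = 0.000723), mRpL41 (1.48 ± 0.25, 0.00146) and mRpS34 (1.29 ± 0.20, 0.000855). With the length trend removed, 5 differences were called, at 16.2% of all genes, and those 3 were among them at 1.24, 0.86 and 0.74. The mutant's effect with Panx FL10B was lower than that against W1118 for 12 members, while 21.2% of all genes were called, 12% as lower and 9.26% as higher. mRpL27 and mRpS34 were the only ones still called with the length trend removed, when 15.9% of all genes were.

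Other nuclear genes for mitochondrial proteins were described from lists, whose counts are to be read beside the shares of all tested genes. In the knockdown 8% of all tested genes rose and 7.7% fell, and in the mutant 15% and 11.8%. With Panx FL10B 9.27% rose and 10.2% fell, and 25.2% were higher and 30.3% lower in W1118 than in attp2. With the length trend removed, 10.6%, 22%, 21.5% and 54.8% were called in these comparisons. The mitochondrial small subunit proteins encoded by tko and bonsai, which have other symbols, were each called in 1 of the 4 comparisons of groups, with tko higher in the mutant than in W1118 by log2 0.63 ± 0.20 (edgeR adjusted p = 0.0342) and bonsai lower in W1118 than in attp2 by -0.48 ± 0.11 (edgeR adjusted p = 0.00208). After removal of the trend with length these values were 0.52 and -0.17, and neither passed the test. Among 29 nuclear subunits of the respiratory chain and ATP synthase, 4 fell and 0 rose in the knockdown. In the mutant 9 rose and 0 fell, led by sun and CoVIIc at log2 1.05 and 0.76, with Panx FL10B 1 rose (blw, an ATP synthase subunit, log2 0.39), and between the stocks 15 were lower and 5 higher. For the 27 of them with a known length, the fit without the length trend gave other counts, in which 2 rose and 1 fell in the knockdown, 3 rose and 1 fell in the mutant, 4 rose with Panx FL10B, and 10 were lower and 8 higher in W1118 than in attp2. In that fit sun, CoVIIc and blw still rose, at 0.63, 0.49 and 0.44. Of the 89 tested genes for cytoplasmic ribosomal proteins, another family of short genes, 14 fell and 0 rose in the knockdown and 53 rose and 3 fell in the mutant. With Panx FL10B 3 rose and 1 fell, and between the stocks 62 were lower and 9 higher in W1118. For the 88 of known length, removal of the trend gave 4 that rose and 2 that fell in the knockdown, 26 and 7 in the mutant, 16 and 0 with Panx FL10B, and 49 lower and 17 higher in W1118.

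Lists of other mitochondrial functions held calls in both directions, to be read beside the same shares of all tested genes. Of 19 tested genes for protein import and chaperones, 2 rose and 1 fell in the knockdown, 6 rose and 1 fell in the mutant, and 2 rose with Panx FL10B, among them Tom40, the pore of the outer membrane, at log2 0.50 ± 0.11 (edgeR adjusted p = 0.0051). Between the stocks 8 of these genes were lower and 4 higher in W1118. Of 10 genes for mitochondrial DNA maintenance and transcription, 7 were lower in W1118 than in attp2 and 0 higher, with mtSSB, which binds single-stranded mitochondrial DNA, at -1.59 ± 0.15 and TFAM, which packages it, at -1.16 ± 0.12. mtSSB fell in the knockdown (-0.48 ± 0.15), and in the mutant 2 rose, among them TFAM (0.50 ± 0.12), and mtRNApol, the mitochondrial RNA polymerase, fell (-0.42 ± 0.13). Of 5 translation factors, 0 passed the test in the knockdown. In the mutant EfTuM, which brings tRNAs to the mitochondrial ribosome, rose (0.40 ± 0.11) and waw fell (-0.36 ± 0.09), and the median of the 5 was 0.01. In W1118 against attp2, EfTuM and gatA were lower (-0.99 ± 0.11 and -0.95 ± 0.19) and ico was higher (0.61 ± 0.12), with a median of 0.13. waw, gatA and ico were named after their values were seen.

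In the fit without the length trend, 18 import genes had a known length, of which 2 rose and 0 fell in the knockdown, 4 rose and 1 fell in the mutant, 4 rose and 0 fell with Panx FL10B, and 4 were higher and 7 lower in W1118 than in attp2. Of 9 genes for mitochondrial DNA, 0 were called in the knockdown and with Panx FL10B, 1 rose in the mutant, and 1 was higher and 6 lower in W1118. Tom40 still rose with Panx FL10B (0.54), mtSSB and TFAM were still lower in W1118 than in attp2 (-1.27 and -0.89), and so was EfTuM (-0.80), which also still rose in the mutant (0.32). gatA (-0.75) and ico (0.65) kept their calls between the stocks. The changes of mtSSB in the knockdown (-0.24) and of TFAM (0.32), mtRNApol (-0.28) and waw (-0.20) in the mutant did not pass the test in that fit.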

How the data were processed

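Raw counts of reads per gene were deposited by the authors in 1 table of 12 libraries and used as deposited. STAR 2.5.2a with genome dm3, cutadapt 1.16 and bcl2fastq 1.8.4 are listed for every library in the submitters' processing notes, and deepTools 2.5.7 and featureCounts 1.6.1 are named for 8 of them. The sources used here do not give the annotation, the use of strand or the counter of the 4 libraries with Panx FL10B. Per the labels' protocols, not-so-random primers were used on total RNA.

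Robust quasi-likelihood tests of edgeR 4.0.16 (R 4.3.3) were run on the deposited counts in 1 model of 6 groups, with TMM scaling, filterByExpr and Benjamini-Hochberg adjustment over 8638 genes at a threshold of 0.05. DESeq2 1.42.0 was an alternative. The model has 6 residual degrees of freedom, and all groups share an estimate of the spread. CPM values are TMM-scaled, and 3 counts correspond to 0.275 to 0.772 CPM per library, which covers counting error only. The labels do not say whether replicates are separate animals, so p-values measure the spread between these libraries, which may be technical. In counts simulated for the mutant against W1118 over 8638 genes, 53% of 1.5-fold and 79% of 2-fold changes were recovered and 6.38% of calls were false. The simulated counts had no length trend and the same spread in all groups, unlike these libraries. Those rates are therefore a check of the code and not error rates of the calls above.

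Exon lengths matched 98.7% of tested genes. Their correction used the loess trend of each library as an offset. Named genes are the 5 largest rises and falls per comparison among called members without overlap of groups, the 3 highest and 3 lowest by mean CPM, members called in at least 3 comparisons, and from other mitochondrial lists the 2 with the smallest p, of which some are given. The members, lists and tests were chosen with earlier results of these data known.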

Additional observations from a re-analysis of the deposited data

Results flagged for a closer look

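The effect of nxf2 loss differed between the germline knockdown (against attp2) and the mutant (against W1118) for 11 of the 21 members named by rule, by the edgeR test of the difference of the effects, which called 27% of all tested genes, 14.5% as higher. Most of the 21 were named as the largest changes of the same comparisons, so the count describes chosen genes. On the log2 scale, mutant effect minus knockdown effect, the differences were 1.69 for mRpL27, 1.48 for mRpL41, 1.29 for mRpS34, 0.98 for mRpS33, 0.94 for mRpS18A and 0.92 for mRpL54. They were 0.87 for mRpL40, 0.81 for mRpS31, 0.76 for mRpL55, 0.74 for mRpL19 and 0.49 for mRpS18B. The edgeR adjusted p ran from 0.000723 for mRpL27 to 0.0482 for mRpS18B. With the length trend removed, only mRpL27, mRpL41 and mRpS34 of these 11 passed.

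The effect in the mutant with Panx FL10B, against its heterozygote, differed from that in the mutant against W1118 for 5 of the same 21 members, while 21.2% of all tested genes were called, 12% as lower. The differences were -1.50 for mRpL27, -1.23 for mRpS34, -0.99 for mRpS33, -0.85 for mRpL19 and -0.70 for mRpS18A, with edgeR adjusted p of 0.000859 for mRpS34 to 0.0321 for mRpS33. With the length trend removed, only mRpL27 and mRpS34 of these 5 passed. The controls differ in stock between the effects set against each other, so stock and the state of nxf2 cannot be told apart in these differences.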

How the results depend on the processing

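Counts below are members called, in the order knockdown, mutant, Panx FL10B, W1118 against attp2, the difference of knockdown and mutant effects, and that of the mutant effects with and without Panx FL10B, with main values 8, 25, 1, 44, 30 and 12. DESeq2 gave 5 in the knockdown, 13 in the mutant, where it called 22.3% of all genes, and 19 for the first difference. With only the libraries of the groups compared, the counts were 0 in the knockdown, at 2.29% of all genes, 4 with Panx FL10B, and 19 for each difference. Without scaling factors or without the filter, 0 were called with Panx FL10B. Leaving out a library gave 2 to 21, 2 to 15, 0, 31 to 44, 11 to 38 and 2 to 9. The medians then ran from -0.27 to -0.07, from 0.27 to 0.39, from -0.0869 to -0.0273, from -0.55 to -0.31, from 0.45 to 0.63 and from -0.37 to -0.28. The median with Panx FL10B was -0.0151 with upper-quartile scaling and -0.0768 without scaling. The cause was not tested in these cases. Where the share of all genes called in a fit is not given in this section or above, its count says nothing particular to the members.

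With the other stock as control, 41 members were called in the knockdown, median 0.21, and 42 in the mutant, median -0.11. mRpL27 then reversed, to 0.89 in the knockdown and -0.32 in the mutant, as did mRpS31 in the mutant, to -0.17. Among the 30 members without exon overlap, 5, 6 and 22 were called in the knockdown, the mutant and between the stocks, where fewer genes were counted, and the median in the mutant was 0.21. With the exon-length correction, added after the data were seen, the counts were 1, 9, 2, 43, 5 and 2, with medians of 0.0447, 0.0596, 0.0658, -0.11, 0.0300 and -0.00069. The summed CPM without scaling was 2410 in the knockdown, 2130 in W1118, 2595 in the Panx FL10B heterozygote and 2495 in the mutant, the last being 2496 with upper-quartile scaling. Replicate numbers did not pair the libraries, with correlations of -0.05 to 0.08, and a replicate block gave 8, 25, 1, 46, 30 and 12. Each change of a named member was refitted in 12 to 14 alternative settings. Over all these changes and settings together, 43 further results lost their call and 231 kept it.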
